A study of Mus musculus with 46 samples.

Results

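The nuclear genes for subunits of the respiratory chain and of ATP synthase were described in visceral adipose tissue of mice, across 4 groups of 5 RNA-seq libraries each. Members were taken by symbol, as the Nduf (a, b, c, s and v), Sdh, Uqcr, Cox4 to Cox8 and Atp5 families with Cyc1 and Cycs and without pseudogenes. A member also had to reach 0.5 FPKM, a read measure corrected for gene length and library, in at least 5 of the 20 libraries. Of 86 matching symbols among 24338 in the table, 82 passed. They were 34 genes of complex I, 4 of complex II, 9 of complex III, 17 of complex IV, 17 of complex V (ATP synthase) and the mobile carrier Cycs. The other 4 were Ndufs5, under 0.5 FPKM in all 20 libraries, and the isoforms Cox6a2, Cox7b2 and Cox8c, which reached it in 4 libraries each. Ndufa4 and its paralog Ndufa4l2 were counted with complex IV, where the NDUFA4 protein is now placed. Atp5s and Atp5sl carry ATP synthase symbols but are not structural subunits.

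CORT mice received corticosterone, the main glucocorticoid of rodents, which at 5 weeks models active Cushing's syndrome (CORT_5w). The mice called recovered were sampled at 15 weeks (CORT_15w), and vehicle controls were sampled at both times (VEH_5w and VEH_15w). The labels name no allele, strain, sex, age or dose, and they do not say whether a library is 1 animal. If replicates are not separate animals, p-values measure only the spread between these samples. In bulk tissue, fewer cells of a type and less RNA per cell cannot be told apart.

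The respiratory chain passes electrons from NADH and succinate through complexes I and II to ubiquinone, then through complex III and cytochrome c to complex IV, which reduces oxygen. Complexes I, III and IV pump protons out of the mitochondrial matrix, and ATP synthase uses their return to make ATP. White adipocytes hold few mitochondria beside brown ones, and their respiratory chain supports lipid storage and adipokine secretion. Complexes I, III, IV and V also hold subunits encoded in mitochondrial DNA. Of 13 such genes looked for by symbol, 0 were in the table, so only nuclear subunits were described.

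The libraries held 25.1 to 42.6 M (median 30.1 M) reads, recovered from the steps of the FPKM values. The adipocyte marker Adipoq, which encodes adiponectin, stood at 1641 to 4016 FPKM in all 20 libraries. In 7 libraries, transcripts of other organs stood out. Alb, a liver transcript, reached 2095 FPKM in CORT_5w replicate 2 and at most 51.8 elsewhere. Prm2, a protamine of spermatids, reached 129 to 570.4 FPKM in CORT_5w replicate 3, VEH_15w replicate 5 and CORT_15w replicates 1 and 5. Crisp1, an epididymis transcript, reached 649 to 1430 FPKM in VEH_5w replicate 3, CORT_5w replicate 4 and VEH_15w replicate 5. Without these 7 libraries, 4 VEH_5w, 2 CORT_5w, 4 VEH_15w and 3 CORT_15w libraries remained, and results below are also given for those 13.

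Promoters are shown first for the 4 members with the largest rise at 5 weeks among those with a promoter in the table used, because they differ in the motifs they hold. Sequences are from RefSeq on GRCm38.p6, 250 bases before to 50 bases after the start of each gene, written along the gene's strand. Capitals mark matches, on either strand, to GCGCANGCG (motif of NRF1, a regulator of nuclear mitochondrial genes) or CCGGAAG (ETS motif, bound by GABP among others).
Cox7a1 (chr7:30183921-30184220, plus strand): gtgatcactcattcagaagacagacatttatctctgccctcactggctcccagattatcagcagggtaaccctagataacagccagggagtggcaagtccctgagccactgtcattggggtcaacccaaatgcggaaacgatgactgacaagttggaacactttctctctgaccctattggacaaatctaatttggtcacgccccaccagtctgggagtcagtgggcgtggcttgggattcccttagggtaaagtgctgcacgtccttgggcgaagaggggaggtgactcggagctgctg
Cycs (chr6:50566520-50566819, minus strand): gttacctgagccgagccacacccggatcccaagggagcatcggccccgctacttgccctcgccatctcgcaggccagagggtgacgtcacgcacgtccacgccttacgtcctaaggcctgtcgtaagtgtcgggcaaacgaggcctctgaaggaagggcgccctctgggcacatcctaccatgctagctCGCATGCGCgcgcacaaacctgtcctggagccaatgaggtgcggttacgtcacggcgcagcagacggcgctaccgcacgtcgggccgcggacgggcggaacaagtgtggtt
Ndufa11 (chr17:56717512-56717811, plus strand): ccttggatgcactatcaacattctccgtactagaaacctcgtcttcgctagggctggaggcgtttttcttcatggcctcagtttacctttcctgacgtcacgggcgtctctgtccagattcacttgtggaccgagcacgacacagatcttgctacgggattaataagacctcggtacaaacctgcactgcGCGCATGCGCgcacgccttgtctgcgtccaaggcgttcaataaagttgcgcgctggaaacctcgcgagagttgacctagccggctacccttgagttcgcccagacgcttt
Ndufb6 (chr4:40279372-40279671, minus strand): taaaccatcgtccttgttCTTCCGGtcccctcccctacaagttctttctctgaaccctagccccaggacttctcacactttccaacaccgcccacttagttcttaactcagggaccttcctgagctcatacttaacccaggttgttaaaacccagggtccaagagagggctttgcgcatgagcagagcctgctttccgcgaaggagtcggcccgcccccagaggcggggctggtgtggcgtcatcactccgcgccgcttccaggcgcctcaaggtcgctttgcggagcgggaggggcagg
Cycs held 1 NRF1 match and Ndufa11 held 2 that overlap as a palindrome. Ndufb6 held 1 ETS match, on the opposite strand, and Cox7a1 held none of the 4 motifs searched. RefSeq promoters were matched for 68 of the 82 members (74 promoters, since some genes have more than 1 start). Across these 74, GCGCANGCG was in 28.4%, against 6.25% of all 32851 promoters of the same length, and CCGGAAG in 21.6% against 8.86%. The ERR motif AAGGTCA was in 9.46% against 4.72%, and the YY1 motif AANATGGCG in 16.2% against 2.38%. Among the 26 promoters of members that rose at 5 weeks, GCGCANGCG was in 38.5%, and among the other 48 in 22.9%. CCGGAAG was in 30.8% and 16.7% of these, AAGGTCA in 15.4% and 6.25%, and AANATGGCG in 11.5% and 18.8%. Both strands were searched, overlaps between motifs were allowed, and these shares are descriptions without a test.

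Members were among the more abundant transcripts of the tissue. The median of their mean levels was 85.4 FPKM, against 6.43 FPKM over all 15601 genes tested, and 35 members were above 100 FPKM while 8 were below 10. Together they made up 1.95% to 2.99% of the summed FPKM of a library. In ATP synthase, the highest level was that of Atp5b, the catalytic beta subunit (mean over 20 libraries 629 FPKM), followed by Atp5l at 287 and the alpha subunit Atp5a1 at 272. In complex IV, Cox4i1, Cox8a and Ndufa4 stood at 399, 384 and 359 FPKM. In complex III, the small subunits Uqcrh, Uqcrb and Uqcr11 stood at 281, 215 and 201 FPKM. In complex I, Ndufb9, Ndufa3 and Ndufb8 stood at 199.7, 172 and 165 FPKM. In complex II, the flavoprotein Sdha stood at 163, the iron-sulfur subunit Sdhb at 89.4 and the membrane anchor Sdhc at 86.5 FPKM. Neighbours in these orders often lay within the spread between libraries, as for Sdhb and Sdhc, which ranged from 63.95 to 124 and from 63.04 to 131 FPKM.

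Summed per complex, the levels of the groups overlapped between libraries. Complex I summed to 3663, 2473, 2827, 2089 and 2834 FPKM in VEH_5w replicates 1 to 5 and to 2759, 3529, 3700, 3140 and 3047 in CORT_5w. At 15 weeks it summed to 2730, 2305, 3195, 2253 and 2592 FPKM in VEH_15w and to 2093, 2629, 2257, 2137 and 2382 in CORT_15w. VEH_5w replicate 1 lay within the range of CORT_5w, and the lowest vehicle sum at 5 weeks was that of replicate 4. ATP synthase summed to 3081 ± 612 FPKM in VEH_5w and 3678 ± 419 in CORT_5w (SD, n = 5), then to 2832 ± 422 in VEH_15w and 2486 ± 248 in CORT_15w. Complexes II, III and IV showed the same order of means, with CORT_5w highest and CORT_15w lowest.

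**Figure D1:**
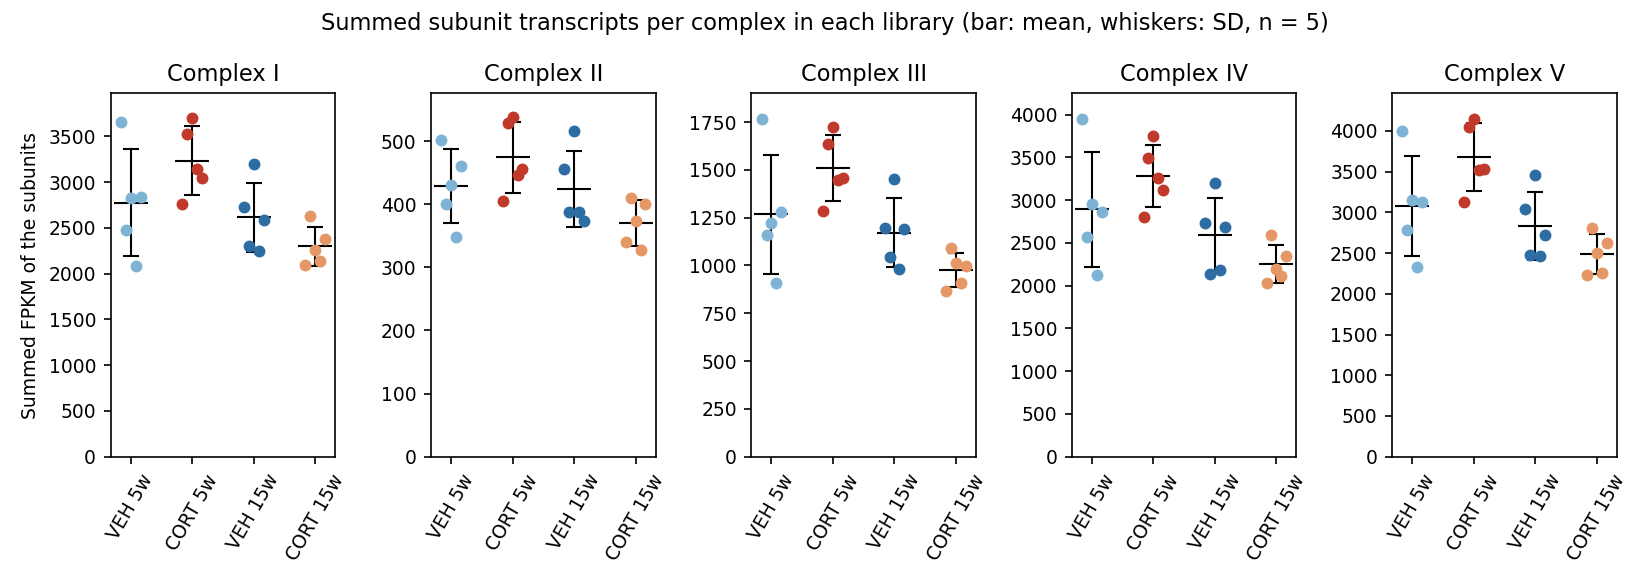
Summed FPKM of the subunits of complexes I to V (y axis) in each of the 20 libraries (points, by group on the x axis), with the mean and SD of 5 libraries. The CORT_5w mean is the highest and the CORT_15w mean the lowest in each panel, and the points of CORT_5w and VEH_5w overlap, with VEH_5w replicate 1 among the highest.

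During active disease, transcripts of 30 of the 82 members were higher under corticosterone and 3 were lower at an adjusted p below 0.05 (limma, Benjamini-Hochberg over 15601 genes). These shares, 36.6% and 3.66% of members, stand beside 22.3% of all genes called higher and 21.5% called lower (43.8% in either direction) in the same comparison. The risers were 13 of 34 complex I genes, 2 of 4 in complex II, 4 of 9 in complex III, 3 of 17 in complex IV, 7 of 17 in ATP synthase, and Cycs. Sdha, Cox4i2 and Ndufa4l2 fell. The median log2 fold change was 0.26 over the members and 0.01 over all genes. By complex it was 0.27 (I), 0.31 (II), 0.27 (III), 0.25 (IV) and 0.28 (V), with the lowest medians when VEH_5w replicate 4 was left out (complex III 0.14) and the highest without VEH_5w replicate 1 (complex III 0.44). Under quantile normalization, which gives all libraries the same distribution of values, the medians were -0.01, 0.04, -0.02, 0.01 and -0.01. The median of all genes was then -0.02. Under that scaling 15 members were higher and 12 lower (18.3% and 14.6%, beside 19.3% and 23.2% of all genes), and the higher share of the calls was 55.6% in place of 90.9%. All 15 were among the 30. Without the 7 libraries, 7 members were higher (Cox7a1, Cycs, Ndufa11, Ndufb6, Ndufb7, Sdhc and Atp5g1) and 0 were lower, with 15.6% and 12.6% of all genes called in those directions. In 12 members every CORT_5w library was above every VEH_5w library, 14.6% of members against 15.6% of all genes, a share close to the background. Without VEH_5w replicate 1, 48 members were higher, and without VEH_5w replicate 4, 20 were. The share of all genes called in these refits is not given here.

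**Figure D2:**
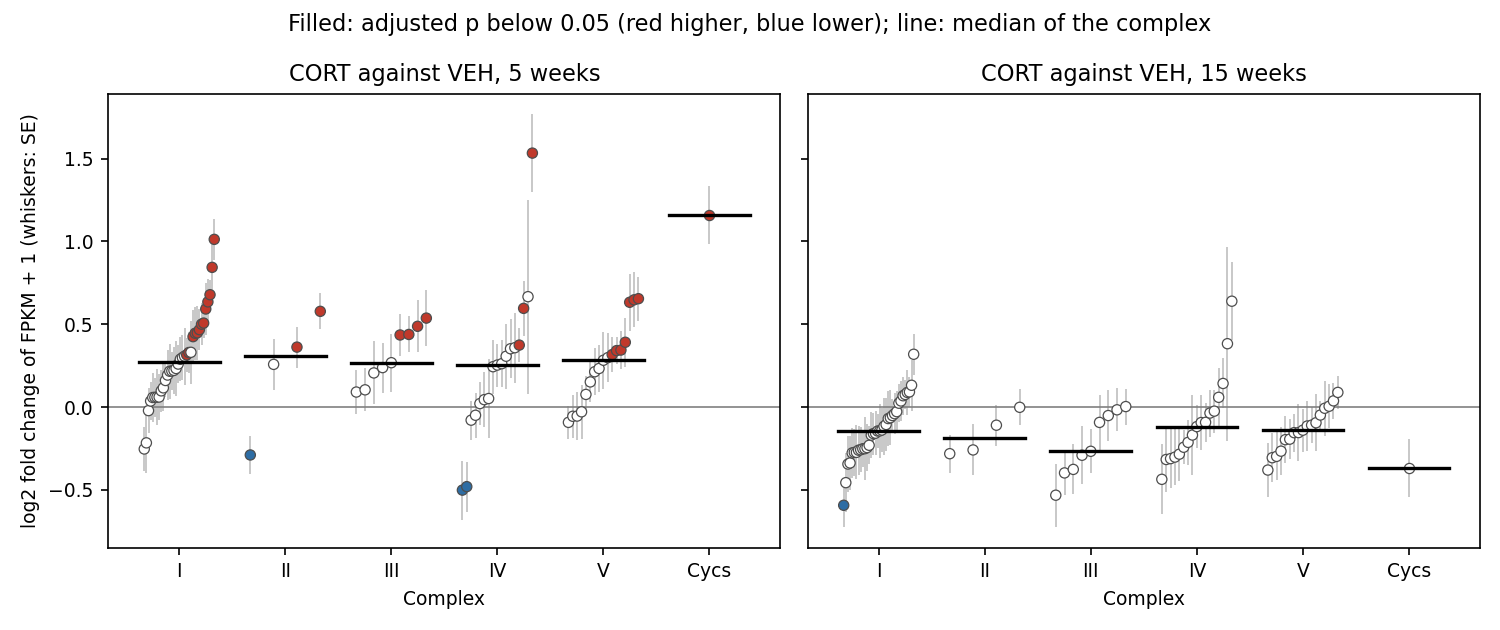
Log2 fold change of FPKM + 1, CORT against VEH, for each of the 82 members (points, whiskers are SE) by complex, at 5 weeks (left) and 15 weeks (right). Red and blue fills mark members called higher (30 at 5 weeks, 0 at 15 weeks) or lower (3 and 1), and black lines are the medians of each complex, which at 5 weeks lie between 0.25 and 0.31 as scaled by the authors and between -0.02 and 0.04 under quantile normalization.

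Cytochrome c is the soluble carrier between complexes III and IV, and its release from mitochondria starts apoptosis. Cycs stood at 64.1, 45.4, 44.7, 28.4 and 42.9 FPKM in VEH_5w replicates 1 to 5 and at 82.8, 113, 109.9, 96.3 and 95.2 in CORT_5w. Each CORT_5w library was above each vehicle library, with group means of 99.4 ± 12.2 and 45.1 ± 12.7 FPKM (SD, n = 5). It rose (log2 fold change 1.16, SE 0.18, adjusted p = 4.56e-05), and by 1.01 without the 7 libraries (adjusted p = 0.014). Mouse Cycs has processed pseudogenes, and how the authors' counting treated reads shared with them is not given in the sources used here.

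Complex I takes electrons from NADH. Ndufa11, an accessory subunit of its membrane arm, stood at 8.54, 6.43, 7.32, 5.64 and 5.33 FPKM in VEH_5w and at 13.3, 16.02, 15.1, 14.02 and 13.03 in CORT_5w. No vehicle library reached the lowest CORT_5w library, and the rise had the smallest adjusted p of the members (log2 fold change 1.01, SE 0.12, adjusted p = 5.23e-06). Leaving out the 7 libraries gave a log2 fold change of 0.94 (adjusted p = 0.00427). Ndufb7, another membrane arm subunit, stood at 63.4, 50.1, 56.9, 50.1 and 55.2 FPKM in VEH_5w and at 82.8, 96.3, 91.3, 88.01 and 84.7 in CORT_5w. Its groups did not overlap either, and it rose by 0.68 on the log2 scale (SE 0.09, adjusted p = 1.01e-05). Ndufb6, of the same arm, stood at 77.8, 57.4, 73.4, 42.4 and 60.2 FPKM in VEH_5w and at 86.3, 131, 119, 109 and 111 in CORT_5w. Its lowest CORT_5w library, replicate 1, was above the highest vehicle library, also replicate 1, and it rose by 0.84 (SE 0.17, adjusted p = 0.000521). The accessory subunits Ndufa8 and Ndufb3 rose by 0.51 and 0.63 (adjusted p = 0.000215 and 0.00112), again without overlap.

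The core subunits of complex I, which carry its flavin and iron-sulfur clusters, numbered 7 among the members, of which 0 fell and 3 rose: the iron-sulfur subunits Ndufs1 (log2 fold change 0.50, adjusted p = 0.00365) and Ndufs8 (0.59, 0.00452), and Ndufs3 (0.31, 0.019). Ndufv1, which binds the flavin and NADH, had a log2 fold change of 0.16 (adjusted p = 0.207). Of 27 accessory subunits, 10 rose and 0 fell, with log2 fold changes from -0.22 to 1.01 over all 27. Whether core and accessory subunits differ was not tested.

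Complex II oxidizes succinate and is the only complex of the chain encoded wholly in the nucleus, and its 4 members split in direction. The membrane anchor Sdhc stood at 84.7, 73.2, 82.7, 69.6 and 79.8 FPKM in VEH_5w and at 101, 131, 127, 109.8 and 117 in CORT_5w. The libraries did not overlap, and Sdhc rose (log2 fold change 0.58, SE 0.11, adjusted p = 0.00035). The other anchor, Sdhd, rose by 0.36 (adjusted p = 0.0234), and the iron-sulfur subunit Sdhb had a log2 fold change of 0.26 (adjusted p = 0.188). The flavoprotein Sdha, which oxidizes succinate, stood at 194, 175, 167, 149 and 206 FPKM in VEH_5w and at 133, 158, 169.7, 130.4 and 137 in CORT_5w. The groups overlapped, since CORT_5w replicates 2 and 3 lay within the vehicle range. Sdha fell (log2 fold change -0.29, SE 0.12, adjusted p = 0.0489), close to the threshold. Its log2 fold change was -0.58 under quantile normalization (adjusted p = 5.78e-05) and -0.41 without the 7 libraries (0.0649).

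Complex III passes electrons from ubiquinol to cytochrome c. Uqcrc1, a core protein, stood at 82.3, 68.7, 68.7, 54.1 and 73.02 FPKM in VEH_5w and at 84.3, 102, 107, 85.9 and 90.3 in CORT_5w. Each CORT_5w library was above each vehicle library, by a small margin for replicate 1, and Uqcrc1 rose by 0.44 (SE 0.11, adjusted p = 0.00313). Cyc1, the heme protein cytochrome c1, rose by 0.43 (adjusted p = 0.0105), and the small subunits Uqcrq and Uqcr11 by 0.54 and 0.49 (0.014 and 0.0163). These 3 had overlapping libraries. The Rieske protein Uqcrfs1 and the second core protein Uqcrc2 had log2 fold changes of 0.10 and 0.24 (adjusted p = 0.556 and 0.215). In the 13 remaining libraries, 0 of the 9 were called, and Uqcrc1 was at 0.34 (adjusted p = 0.142).

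Complex IV, cytochrome c oxidase, reduces oxygen, and several of its nuclear subunits exist as isoforms of particular tissues. Of 11 subunits of general use, Cox5a and Cox6b1 rose, by 0.37 and 0.60 on the log2 scale (adjusted p = 0.00612 and 0.00727). Cox4i1 and Cox8a, the most abundant, were at -0.05 and 0.02 (adjusted p = 0.799 and 0.916). Cox6a1, Cox7a2, Cox7b and Ndufa4 were at 0.26, 0.35, 0.36 and 0.31, none of them called (adjusted p from 0.122 to 0.221). Cox7a1, the heart, muscle and brown fat isoform of subunit 7a, stood at 1.33, 3.51, 2.84, 2.18 and 2.30 FPKM in VEH_5w and at 8.34, 7.62, 8.70, 11.9 and 7.50 in CORT_5w. The groups did not overlap, CORT_5w replicate 4 was the highest, and the rise was the largest of the members (log2 fold change 1.53, SE 0.24, adjusted p = 4.94e-05). Without the 7 libraries, replicate 4 among them, it was 1.46 (adjusted p = 0.0108).

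Markers of brown fat and muscle were read beside Cox7a1, where 22.3% of all genes were called higher and 21.5% lower at 5 weeks. Ucp1, the uncoupling protein that defines brown adipocytes, was at 3.67 FPKM in CORT_5w replicate 4 and at most 0.325 in the other 19 libraries. Of 16 brown and beige markers, 8 were tested, of which 1 rose (Cox7a1 itself) and 1 fell (Ebf2). Their summed level was 29.8 to 42.5 FPKM in VEH_5w, 32.8 to 69.4 in CORT_5w, 28.6 to 54.2 in VEH_15w and 25.7 to 49.4 in CORT_15w. Of 16 skeletal muscle markers 5 were tested, and Acta1 and Myl1 rose (log2 fold change 1.38 and 1.32, adjusted p = 0.0109 and 0.00027) while Actn3 fell. Acta1 stood at 8.31, 8.45, 33.1, 19.6 and 20.98 FPKM in VEH_5w and at 37.1, 34.8, 37.03, 56.6 and 53.3 in CORT_5w. The muscle sums were 18.7 to 54.5 FPKM in VEH_5w and 63.4 to 115.7 in CORT_5w, then 14.1 to 26.96 in VEH_15w and 20.6 to 53.8 in CORT_15w. The myosin heavy chain Myh4 of fast fibers was at most 0.137 FPKM in all libraries, and the creatine kinase Ckm was at most 9.23 FPKM, in CORT_5w. The part of muscle transcripts in the Cox7a1 result was not tested.

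The members that fell in complex IV were both of low level. Ndufa4l2, a paralog of Ndufa4 known to be induced by hypoxia, stood at 1.86, 2.64, 1.82, 2.36 and 2.49 FPKM in VEH_5w and at 1.72, 1.29, 1.22, 1.20 and 1.14 in CORT_5w. Each CORT_5w library was below each vehicle library, and Ndufa4l2 fell (log2 fold change -0.48, SE 0.15, adjusted p = 0.0145). It was the sole member below in every library, 1.22% of members against 13.3% of all genes. Cox4i2, the lung isoform of subunit 4, stood at 0.924, 1.13, 0.564, 1.06 and 1.16 FPKM in VEH_5w and at 0.585, 0.671, 0.258, 0 and 0.504 in CORT_5w. The groups overlapped, CORT_5w replicate 4 was listed at 0, and Cox4i2 fell (log2 fold change -0.50, SE 0.18, adjusted p = 0.0281). Neither was called without the 7 libraries (log2 fold change -0.46 and -0.42, adjusted p = 0.0731 and 0.102). Endothelial markers fell over the same contrast in 12 of 12 genes tested, beside 21.5% of all genes called lower. Their summed levels were 238.9 to 436.6 FPKM in VEH_5w and 103.1 to 161.9 in CORT_5w. The part of this fall in either gene was not tested.

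ATP synthase turns the proton gradient into ATP, and its 7 called members rose. In the ring of c subunits that turns in the membrane, Atp5g1 stood at 44.9, 28.2, 41.8, 28.2 and 30.6 FPKM in VEH_5w and at 46.7, 59.3, 50.6, 66.8 and 49.7 in CORT_5w. The libraries did not overlap, and Atp5g1 rose (log2 fold change 0.65, SE 0.13, adjusted p = 0.000677). Atp5k, the small membrane subunit e, stood at 317, 205, 257, 169 and 209 FPKM in VEH_5w and at 318, 387, 399, 333 and 325 in CORT_5w. Its highest vehicle library, replicate 1, lay just under the lowest CORT_5w library, also replicate 1, and it rose by 0.63 (adjusted p = 0.00583). Of the catalytic head and central stalk, Atp5d and Atp5a1 rose by 0.34 and 0.32 (adjusted p = 0.00281 and 0.0216), while Atp5b was at 0.23 (0.201). Of the peripheral stalk, Atp5o and Atp5f1 rose by 0.65 and 0.39 (0.00412 and 0.039). Atp5g3 was at 0.34 (adjusted p = 0.0212) as scaled by the authors and at -0.01 under quantile normalization, where its direction turned. In the 13 remaining libraries, Atp5g1 kept a call among these, at 0.56 (adjusted p = 0.0287).

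**Figure D3:**
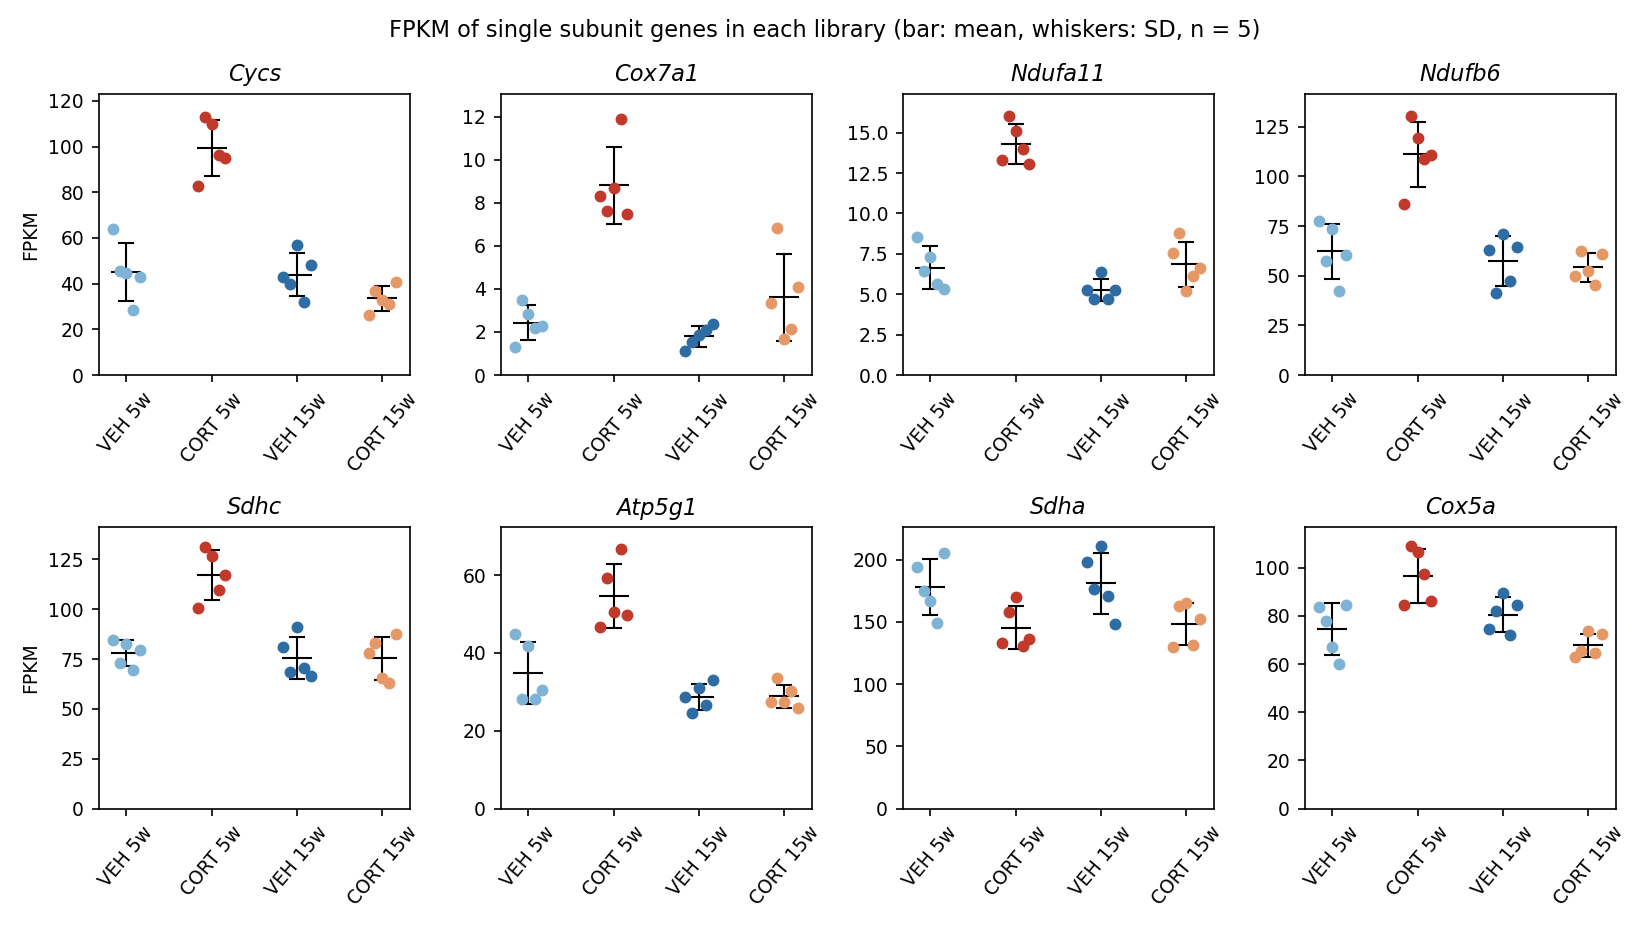
FPKM (y axes, from 0) of 8 members in each library, by group, with the mean and SD of 5 libraries. CORT_5w libraries lie above all VEH_5w libraries for Cycs, Cox7a1, Ndufa11, Ndufb6, Sdhc and Atp5g1 and overlap with them for Sdha and Cox5a.

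Ratios of related transcripts within a library do not depend on a scaling factor per library, apart from the pseudocount of 1, so isoforms were also compared as ratios. Of 20 ratios tested (10 at each time, exact two-sided permutation tests), 5 passed, all at 5 weeks. Each had an exact permutation p = 0.00794, the smallest that 5 against 5 libraries can give, and an adjusted p of 0.0317 over the 20. The log2 ratio of Cycs to Cyc1 was 0.44 ± 0.12 in CORT_5w and -0.29 ± 0.12 in VEH_5w (SD, n = 5), a difference of 0.72. The ranges, 0.25 to 0.53 and -0.42 to -0.17, lay on either side of 0. Within the c ring, whose genes encode the same mature subunit with different import sequences, the ratio of Atp5g1 to Atp5g2 was 0.71 higher in CORT_5w, and that of Atp5g2 to Atp5g3 was 0.40 lower (log2 difference -0.40). Reads shared between these paralogs could be split by the counting, which is not described in the sources used here.

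Within subunit 7a, Cox7a1 to Cox7a2 was 1.18 higher on the log2 scale in CORT_5w. Cox7a2l, a related protein that helps join complexes III and IV into supercomplexes, was lower relative to Cox7a2 (log2 difference -0.43). For the rodent muscle and brown fat isoform Cox8b over Cox8a, the difference was 0.03 (p = 0.929, exact permutation test), with levels of 20.8, 14.6, 5.12, 10.4 and 8.81 FPKM in VEH_5w and 10.6, 11.5, 11.5, 9.72 and 13.3 in CORT_5w. The ratios of Cox4i2 to Cox4i1 and of Ndufa4l2 to Ndufa4 differed by -0.45 and -0.79 (adjusted p = 0.188 and 0.136, exact permutation tests). At 15 weeks no ratio of 10 passed. The difference for Cox7a1 to Cox7a2 was then 0.95 (p = 0.0238, adjusted p = 0.0794, exact permutation test). The 5 ratios kept their direction without the 7 libraries, at 0.69, 0.68, -0.37, 1.28 and -0.33 in the order given, where 2 against 4 libraries cannot give a p below 0.133.

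**Figure D4:**
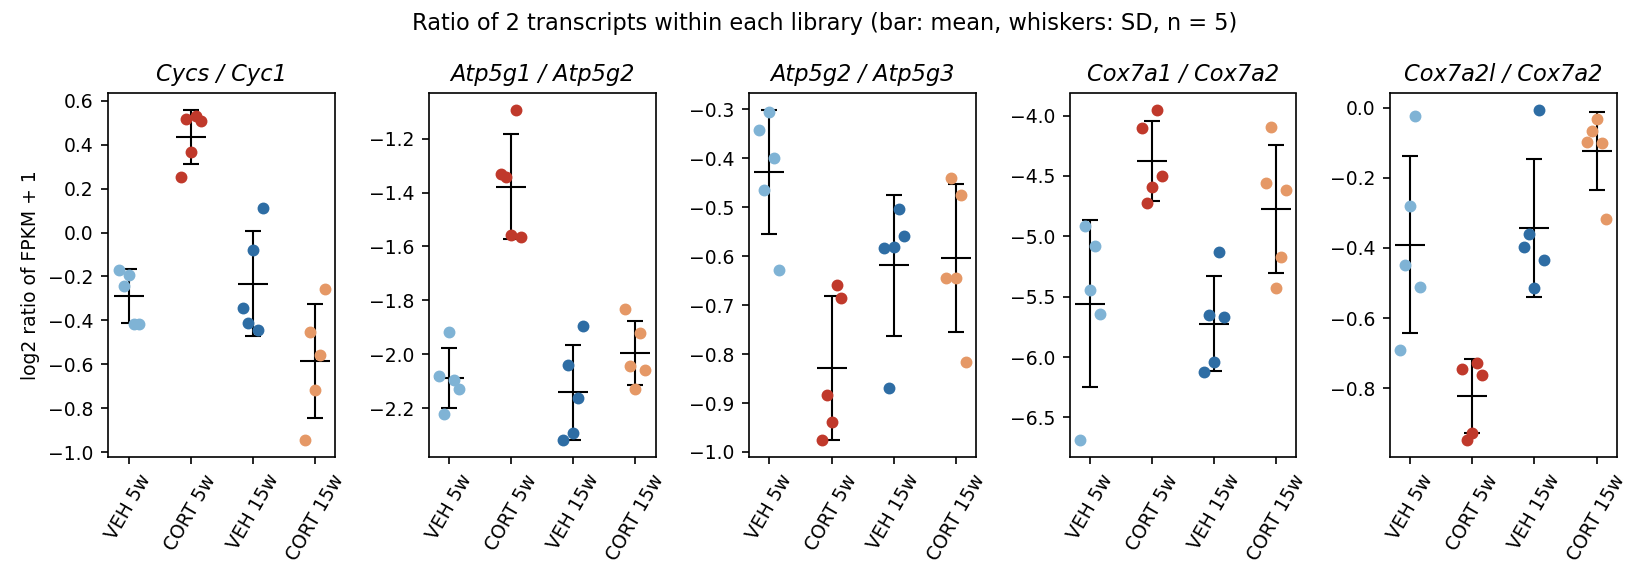
Log2 ratio of FPKM + 1 between 2 transcripts of the same library (y axes, each panel with its own range), by group, with the mean and SD of 5 libraries. The 5 panels are the ratios that passed at 5 weeks, so the lack of overlap between CORT_5w and VEH_5w in each follows from that choice. CORT_15w and VEH_15w libraries overlap in each panel.

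The testis isoforms of complex IV were found in the libraries that carried spermatid transcripts. Cox6b2, the sperm isoform of subunit 6b, stood at 1.83, 2.28, 11.1, 2.63 and 2.79 FPKM in CORT_5w, 0.276, 1.55, 1.16, 2.02 and 15.5 in VEH_15w and 12.4, 1.85, 2.28, 0.848 and 4.67 in CORT_15w. Cox7b2 was at 11.1 FPKM in CORT_5w replicate 3, 23.7 in VEH_15w replicate 5, and 12.2 and 10.8 in CORT_15w replicates 1 and 5. Cox8c was at 13.04, 26.3, 13.1 and 6.98 FPKM in these 4 libraries. In the other 16 libraries Cox7b2 was at most 0.133 and Cox8c at most 0.442 FPKM, while Cox6b2 lay between 0.276 and 3.09. Prm2 was at 129.3 to 570.4 FPKM in the same 4 libraries and at most 2.52 in the rest. In VEH_5w, which holds none of these 4 libraries, Cox6b2 stood at 1.995, 1.23, 1.68, 3.09 and 1.09 FPKM. Cox6b2 was not called at either time (adjusted p = 0.386 and 0.736).

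**Figure D5:**
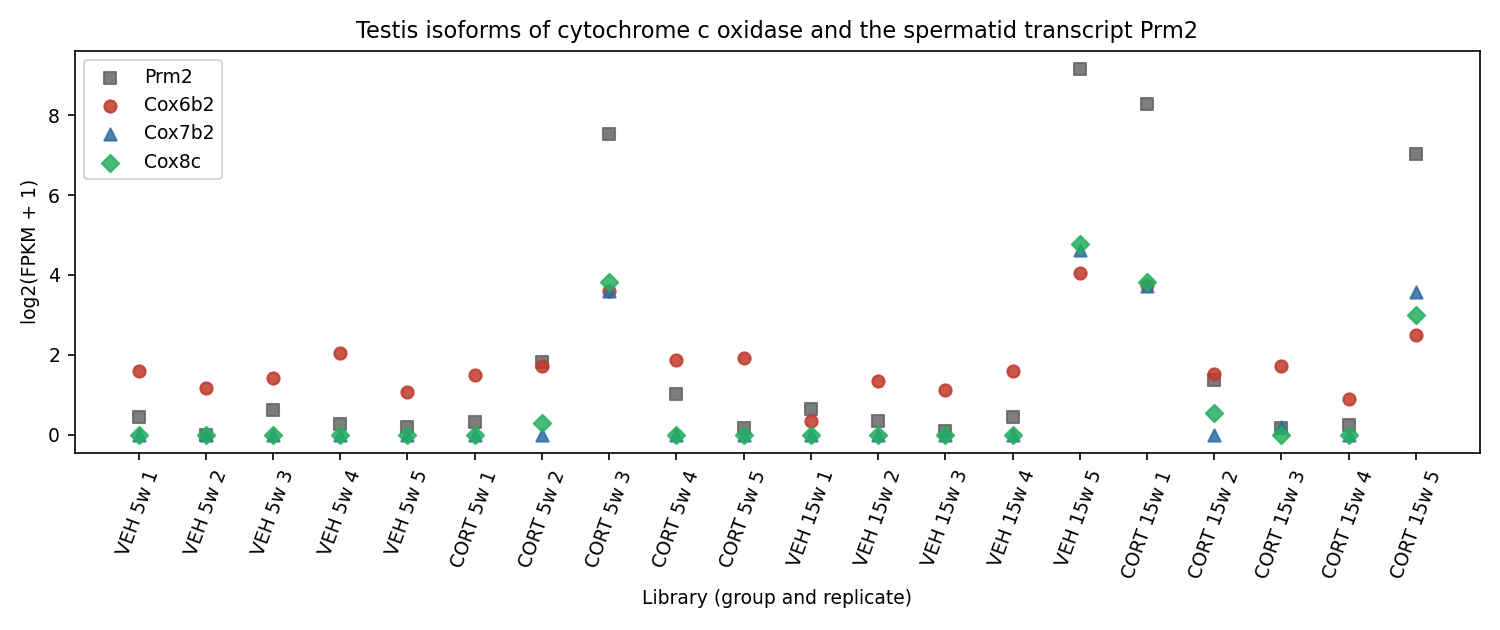
Level as log2(FPKM + 1) (y axis) of Cox6b2, Cox7b2, Cox8c and the spermatid transcript Prm2 in each of the 20 libraries (x axis). The 3 testis isoforms are high in CORT_5w replicate 3, VEH_15w replicate 5 and CORT_15w replicates 1 and 5, the libraries where Prm2 is at 129.3 FPKM or more.

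At 15 weeks, in mice called recovered, 0 of the 82 members were higher than in vehicle controls and 1 was lower (1.22%), beside 3.83% and 6.8% of all genes (10.6% in either direction). The count at an unadjusted p below 0.05 was 11 of 82 (13.4%, beside 25.4% of all genes). With voom on the recovered reads 1 member was higher and 1 lower (1.22% each, beside 6.13% and 3.54% of all genes). The median log2 fold change of members was -0.14, against 0.00 over all genes. Under scaling by total reads the medians were -0.03 over members and 0.09 over all genes, and under quantile normalization -0.03 and -0.02. By complex the median was -0.14 (I), -0.18 (II), -0.27 (III), -0.12 (IV) and -0.14 (V). Without VEH_15w replicate 3 these medians were nearest to 0, at -0.07, -0.09, -0.18, -0.04 and -0.06. In 1 member every CORT_15w library was below every vehicle library, 1.22% of members against 4.93% of all genes, and in 0 members every library was above (3.14% of all genes). Without the 7 libraries 0 members were higher and 0 lower, beside 0.353% and 0.603% of all genes, and the median over members was -0.14.

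The members that rose most at 5 weeks did not pass at 15 weeks. Cycs stood at 42.9, 39.7, 57.1, 31.8 and 48.3 FPKM in VEH_15w and at 26.3, 36.6, 32.7, 31.3 and 40.7 in CORT_15w (log2 fold change -0.37, adjusted p = 0.197). Cox7a1 stood at 1.12, 1.52, 1.86, 2.10 and 2.37 FPKM in VEH_15w and at 3.36, 6.82, 1.68, 2.15 and 4.08 in CORT_15w (0.64, adjusted p = 0.0887). The groups overlapped for both, with CORT_15w replicates 1, 2 and 5 above all vehicle libraries for Cox7a1. Ndufa11 stood at 5.25, 4.69, 6.37, 4.71 and 5.24 FPKM in VEH_15w and at 7.55, 8.81, 5.17, 6.11 and 6.64 in CORT_15w (0.32, adjusted p = 0.108), and it passed under scaling by total reads (log2 fold change 0.42, adjusted p = 0.0294). Sdhc stood at 81.2, 68.3, 91.03, 70.3 and 66.5 FPKM in VEH_15w and 77.9, 83.3, 65.6, 63.04 and 87.5 in CORT_15w, which gave a log2 fold change of 0.00. Sdha was at -0.28 (adjusted p = 0.126), close to its value of -0.29 at 5 weeks.

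The effect of corticosterone differed between the times for 16 members, each with a lower log2 fold change at 15 weeks, and for 0 in the other direction (19.5% and 0% of members, against 10.1% and 6.57% of all genes, 16.7% in either direction). The smallest adjusted p was that of Cycs, whose log2 effect at 15 weeks minus that at 5 weeks was -1.53 (SE 0.25, adjusted p = 0.000873). Ndufb7 (-0.60, 0.00437), Cox5a (-0.62, 0.00855), Ndufa11 (-0.69, 0.013) and Ndufb6 (-0.91, 0.0148) followed. For Cox5a, the groups at 15 weeks stood at 74.5, 81.9, 89.6, 71.8 and 84.6 FPKM in VEH_15w and 62.9, 65.6, 73.6, 64.6 and 72.3 in CORT_15w, against 83.5, 78.02, 66.9, 59.97 and 84.6 in VEH_5w and 84.4, 109, 106, 97.3 and 86.4 in CORT_5w. The others were Sdhc, Ndufs1, Atp5g1, Atp5f1, Atp5d, Ndufa8, Ndufs3, Ndufs4, Atp5g3, Ndufa10 and Atp5k. For Cox7a1 the difference was -0.89 (adjusted p = 0.0711). The count moved with the libraries and the scaling. It was 8 with scaling by total reads, which moves the median of all genes from -0.02 to 0.11, and 3 with quantile normalization, beside 6.02% and 6.67% of all genes. Without the 7 libraries it was 0, beside 3.22% of all genes, with Cycs at -1.33 (adjusted p = 0.0527). Leaving out single libraries gave 7 (CORT_5w replicate 2 or VEH_5w replicate 4) to 47 (VEH_5w replicate 1). The share of all genes called in these refits is not given here, so whether the members moved apart from it is open.

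No member was called between the times in vehicle mice. Of 82 members 0 were called higher and 0 lower at 15 weeks against 5 weeks in VEH, where 0.0128% of all genes were called higher and 0% lower. At an unadjusted p below 0.05 the count was 2 of 82 (2.44%, beside 6.19% of all genes), and the median log2 difference was -0.08. Of the 82 members, 69 were below 0, beside 7631 of all 15601 genes. With single libraries left out, the median ranged from -0.18 to 0.01.

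Genes that build and serve these complexes were read beside the members at 5 weeks, with the same background of 22.3% higher and 21.5% lower. Of 6 subunits or associated proteins whose symbols fall outside the families above, 5 rose and 0 fell. Among these were Higd1a and Higd2a, which associate with complex IV (log2 fold change 1.23 and 1.06, adjusted p = 1.06e-05 and 1.18e-05), and Atpif1, the inhibitor of ATP hydrolysis by ATP synthase (0.67, 0.00406). Of 47 assembly factors 25 rose and 0 fell, led by Atpaf2, for the ATP synthase head (0.94, 8.25e-07), Cox15, a heme A synthesis enzyme (0.49, 2.68e-05), Cox19 (0.74, 5.43e-05) and Sdhaf4, for the flavoprotein of complex II (1.09, 7.32e-05). Of 77 mitochondrial ribosome genes, which translate the subunits encoded in mitochondria, 42 rose and 4 fell. Mrpl34 had the smallest adjusted p (log2 fold change 1.004, adjusted p = 4.28e-06). Of 30 import genes 14 rose and 0 fell, among them Timm22 of the carrier translocase (0.67, 1.39e-06). Of 24 carrier, coenzyme Q and uncoupling genes 11 rose and 0 fell, among them Coq7 and Coq10b of the coenzyme Q pathway (1.002 and 1.03, 3.84e-06 and 1.93e-05) and the ADP/ATP carrier Slc25a5 (0.70, 0.000364). Under quantile normalization the counts higher and lower were 4 and 0, 23 and 2, 38 and 5, 10 and 3, and 7 and 2, in this order of lists, with 19.3% of all genes higher and 23.2% lower. Without the 7 libraries they were 3 and 0, 13 and 1, 16 and 2, 3 and 0, and 5 and 0, with 15.6% and 12.6% of all genes.

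Of 31 regulators of mitochondrial biogenesis tested, 2 rose and 10 fell at 5 weeks, beside 22.3% of all genes higher and 21.5% lower. Nrf1, whose motif is shown above, stood at 4.25, 4.74, 4.23, 4.21 and 4.04 FPKM in VEH_5w and at 3.32, 2.89, 3.01, 3.22 and 3.39 in CORT_5w. The groups did not overlap, and Nrf1 fell (log2 fold change -0.35, adjusted p = 0.000586). Gabpa and Gabpb1, subunits of the ETS factor GABP, fell by 0.25 and 0.57 (adjusted p = 0.0181 and 0.000136), and the nuclear receptor Ppard and the deacetylase Sirt1 by 0.88 and 0.69 (3.25e-05 and 7.18e-05). Polg2, a subunit of the mitochondrial DNA polymerase, fell by 0.69 (8.24e-06). Esrra, an orphan receptor that binds ERR motifs, rose by 0.25 (0.0385). The coactivators Ppargc1a and Ppargc1b had log2 fold changes of -0.60 and -0.40 (adjusted p = 0.0704 and 0.137), and Tfam, which packs mitochondrial DNA, of -0.13 (0.553). Under quantile normalization 1 rose and 11 fell, beside 19.3% and 23.2% of all genes. Without the 7 libraries 0 rose and 8 fell, beside 15.6% and 12.6% of all genes. At 15 weeks 0 rose and 4 fell (Sirt1, Tfb2m, Mterf3 and Yy1, the last 3 named after their values were seen), with 3.83% of all genes higher and 6.8% lower. Of the lists above, 0 assembly factors rose and 1 fell, 1 mitochondrial ribosome gene rose and 6 fell, 0 import genes rose and 6 fell, and 1 carrier gene rose and 1 fell. Of the 6 subunits outside the families 0 rose and 0 fell.

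Markers of other cell types were also read at 5 weeks, beside 22.3% of all genes called higher and 21.5% called lower. Of 15 macrophage markers 9 rose and 2 fell, and their summed level was 666.9 to 1222 FPKM in VEH_5w, 1316 to 3560 in CORT_5w, 534.5 to 870.1 in VEH_15w and 606.3 to 1815 in CORT_15w. Of 15 adipocyte markers 2 rose and 3 fell, with sums of 25753 to 44058 FPKM in VEH_5w and 27511 to 36063 in CORT_5w. Of 10 lymphocyte markers 0 rose and 6 fell, and of 9 mesothelial markers 0 were called. Of 11 preadipocyte and fibroblast markers 1 rose and 3 fell, of 12 liver markers 3 rose and 1 fell, and of 10 testis and epididymis markers 0 were called. The part of these cell types in the values of the subunits was not tested.

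The authors' deposited table for 5 weeks lists 25 members higher and 2 lower at an adjusted p below 0.05, of 81 with an adjusted p. All 27 were also called here in the same direction. Over all genes, that deposited table holds 3936 higher and 3606 lower of 18034. At 15 weeks the authors' deposited table lists 0 members higher and 4 lower, of which 1 was called here. Over all genes, the deposited table for 15 weeks holds 985 higher and 1228 lower of 16325 (6.03% and 7.52%).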

How the data were processed

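RNA-seq of 20 libraries was used. The deposited FPKM values were scaled per library by the authors; per the submitters' processing notes TopHat, Bowtie, DESeq2, DiffBind and mm9 were used, and the counter is not given in the sources used here. The authors' deposited tables hold log2 fold changes, p-values, a test score and a mean normalized signal, per the file headers. Groups were compared with limma 3.58.1 (R 4.3.3, trend) on log2(FPKM + 1), which understates the change of low genes such as Cox7a1, in 1 fit of 4 groups over the 15601 genes at 0.5 FPKM or more in at least 5 libraries. Calls have a Benjamini-Hochberg adjusted p below 0.05. Whole reads were recovered from the FPKM steps, using the authors' mean normalized counts to choose the multiple, for 100% of 382438 values (tolerance 0.05 reads). voom on these reads with their totals called 19.9% of genes higher and 25.1% lower at 5 weeks. Libraries held 25.1 to 42.6 M such reads. Scripts were tested on simulated data. Members and lists were chosen with earlier results of these data known. Named members are up to 12 calls per contrast and direction by adjusted p, the 3 most abundant per complex, isoforms, 4 calls per other list, and 7 regulators and markers; others were chosen after their values were seen. Values of 1 member are not reported here. Histone ChIP-seq was not analysed here.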

Additional observations from a re-analysis of the deposited data

Results flagged for a closer look

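Single libraries stood apart from the other 4 of their group in 4 of 88 groups tested, where chance gives about 1 in 20 (Dixon's ratio above 0.71). Cox7a1 was at 11.9 FPKM in CORT_5w replicate 4. Ndufa4l2 was at 1.72 FPKM in CORT_5w replicate 1. Cox6b2 was at 11.1 FPKM in CORT_5w replicate 3 and at 15.5 FPKM in VEH_15w replicate 5, the libraries of their groups with spermatid transcripts.

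The corticosterone effect differed between the times by the interaction term of the limma fit for 16 members. All were lower at 15 weeks (19.5% of members, beside 10.1% of all genes). The log2 effect at 15 weeks minus that at 5 weeks was -1.53 for Cycs, -0.91 for Ndufb6, -0.73 for Atp5k, -0.72 for Ndufs4, -0.70 for Atp5f1 and -0.69 for Ndufa11. It was -0.66 for Ndufs1, -0.65 for Atp5g1, -0.62 for Cox5a, -0.60 for Ndufb7 and -0.58 for Sdhc. It was -0.50 for Atp5g3, -0.49 for Ndufa10, -0.46 for Ndufs3, -0.42 for Ndufa8 and -0.39 for Atp5d. Under quantile normalization 3 members were lower and 2 higher (3.66% and 2.44%, beside 6.67% and 6.58% of all genes). Without the 7 libraries 0 were lower and 0 higher, beside 3.22% and 1.37% of all genes.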

How the results depend on the processing

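Alternatives were another pseudocount, filter, scaling or test, fewer groups, a replicate block and fewer libraries. The set without the 7 libraries with other tissues' transcripts, and voom with total reads in place of the planned voom with TMM factors, whose values are not given here, were chosen after seeing the data. At 5 weeks (30 higher, 3 lower), quantile normalization gave 15 and 12, total reads 29 and 4, and voom on recovered reads 30 and 4. The stricter filter (5 FPKM or more in at least 5 libraries) gave 1 lower. It left out Cox4i2 and Ndufa4l2, at most 2.17 and 3.65 FPKM, so these were not tested again. The set without 7 libraries gave 7 and 0, beside 15.6% and 12.6% of all genes. Single libraries left out gave 20 to 48 higher and 1 to 3 lower. Shares of all genes are not given here for any refit without a single library. Quantile normalization moved the medians of complexes I to V to -0.00929, 0.043, -0.021, 0.00609 and -0.010 and turned Atp5g3 to -0.011. At 15 weeks (0 higher, 1 lower), total reads and voom on recovered reads gave 1 higher each, beside 6.94% and 6.13% of all genes. The stricter filter, quantile normalization and the set without 7 libraries gave 2, 3 and 0 lower. Of all genes, quantile normalization called 6.25% lower and the set without 7 libraries 0.603%. The share under the stricter filter is not given here. Single libraries left out gave 0 to 2 higher and 1 to 2 lower. For the difference between times (0 higher, 16 lower), pseudocount 0.1, total reads and quantile normalization gave 1, 1 and 2 higher. Of all genes, total reads called 11.4% higher and quantile normalization 6.58%. Total reads, voom, quantile normalization and the set without 7 libraries gave 8, 8, 3 and 0 lower, beside 6.02%, 5.45%, 6.67% and 3.22% of all genes. Single libraries left out gave 0 to 1 higher and 7 to 47 lower. The replicate block gave 2 lower at 15 weeks and 1 higher for the difference, and changed no other count by over 1.5 times. No pairing by replicate number was detected, since 9 of 30 correlations of same-numbered libraries passed 0.1 and 3 of 30 were the best match. This check cannot exclude a pairing.

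At 5 weeks, the ratios Cox7a1/Cox7a2, Cox7a2l/Cox7a2, Atp5g1/Atp5g2, Atp5g2/Atp5g3 and Cycs/Cyc1 were 1.28, -0.33, 0.68, -0.37 and 0.69 without the 7 libraries. With single libraries left out they ranged from 0.898 to 1.34, -0.506 to -0.339, 0.639 to 0.757, -0.450 to -0.363 and 0.692 to 0.771. With 4 against 5 libraries the smallest p is 0.0159 (exact permutation test), so lost calls there reflect fewer samples. At 15 weeks Cox7a1/Cox7a2 ranged from 0.780 to 1.11 and Cox7a2l/Cox7a2 from 0.176 to 0.303. At a threshold of 0.01 the authors' deposited tables list 18 members higher and 1 lower at 5 weeks (all genes 3084 and 2717), and 0 and 1 at 15 weeks (489 and 668). Other causes were not tested. Values of members called in the main fit were counted together with the medians over all members. Of these, 1290 stayed the same, 254 lost the call and 1 reversed. The 2 that moved were medians over all members. Counts of members, medians per complex, isoform ratios and counts from the authors' tables were tallied apart. Of those, 857 stayed the same and 50 moved, while 55 ratios lost a call and 2 gained one. The histone alternatives were not run.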
